A study of Drosophila melanogaster with 6 samples.

Results

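DEAD-box helicases are enzymes that bind RNA and use ATP to open short duplexes or to strip proteins from it, and different members act in transcription, splicing, export, translation, decay and ribosome assembly. Hlc, which the annotation used here names Ddx56, belongs to this family. Its human relative DDX56 is a nucleolar protein with a part in assembly of the large ribosomal subunit. Double-stranded RNA (dsRNA) can silence transcripts other than its target, and loss of a family member can be accompanied by a change of its relatives, so levels of the relatives were measured beside that of the target.

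The genes described are Hlc and 9 other DEAD-box helicases (eIF4A, Rm62, bel, me31B, Hel25E, Dbp80, Dbp45A, Dbp73D and CG7878). They were chosen by name with earlier results of these data known, and all 10 were found among the 23882 features of the deposited count table. All 10 passed the filter on low counts, which kept 11293 features. The study sequenced poly(A) RNA of S2 cells, an established line made from Drosophila melanogaster embryos, in 6 libraries. The control group (2 libraries) received dsRNA against beta-gal, a bacterial gene. The Hlc dsRNA 2 and Hlc dsRNA 3 groups (2 libraries each) received dsRNA numbered 2 or 3 against Hlc. All 6 libraries are labelled day 3, and all cells, controls included, received a dsRNA. The series calls the pairs biological replicates, without naming separate cultures, so p-values measure the spread between these libraries.

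Library totals ran from 56195472 to 84283999 counts. The 20 most abundant features held 14.2% and 13.8% of the counts in the controls and 10.02% to 10.2% in the Hlc dsRNA libraries. The TMM scaling factors were 0.75 and 0.78 in the controls and 1.13 to 1.16 in the other 4, so the choice of scaling moves every comparison with control and is given below for each helicase. The labels call the cells embryo-derived embryonic stem cells. All 10 listed markers of plasmatocytes, the phagocytic blood cells of the fly, had counts in at least 1 library. So did all 5 neuron and all 4 germline markers. The summed level of the plasmatocyte markers was 5667 to 5985 CPM (counts per 1000000 of TMM-adjusted library size) in the controls and 9320 to 10530 CPM in the Hlc dsRNA libraries. Most of that sum was the collagen genes Col4a1 and vkg, whereas NimC1 reached at most 0.15 CPM and Hml at most 0.94 CPM. Of the 9 plasmatocyte markers tested with both dsRNAs against control, 4 rose (Col4a1, vkg, eater, Pxn), 3 fell and 2 were not called. The 3 that fell had log2 fold changes of -0.58 for srp, with no call on library size alone (adjusted p = 0.98), -0.77 for crq and -3.15 for He. The ovarian somatic marker tj was at 0 in all 6 libraries, and the 5 genes of that list summed to 74.7 to 76.4 CPM in the controls against 49.7 to 58.0 CPM. Its 4 tested members went apart, with log2 fold changes of -6.05 for Fas3, -3.32 for bab2, 1.07 for fs(1)Yb and 2.24 for piwi. Neuron markers, most of it brp, summed to 64.9 to 72.03 CPM in the controls against 66.4 to 78.4 CPM. Germline markers, nearly all of it aub, summed to 91.2 to 94.8 CPM against 84.2 to 94.7 CPM. The part of these marker differences in the results below was not tested. In bulk RNA, fewer cells of a kind and less RNA per cell cannot be told apart.

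Hlc (FBgn0001565) lies on the minus strand of chromosome X, 21385518 to 21387946 in assembly BDGP6.54, with 4 exons that span 2116 exonic bases. It was counted 15458 and 19095 times in the controls, 1320 and 1245 times with dsRNA 2, and 1309 and 1883 times with dsRNA 3. Scaled to TMM-adjusted library size, it stood at 317 and 316 CPM in the controls, 16.1 and 19.7 CPM with dsRNA 2, and 20.02 and 19.2 CPM with dsRNA 3. The 4 knockdown libraries were all far below both controls, and the lowest control was 15.8 times the highest knockdown library. The mean fell from 316 ± 1.15 CPM (SD, n = 2) to 18.8 ± 1.80 CPM (SD, n = 4). The log2 fold change of both Hlc dsRNAs against control was -4.08 (SE 0.07, 95% interval -4.26 to -3.90, edgeR quasi-likelihood test, adjusted p = 3.48e-08), and 5.91% of the control level remained (95% interval 5.23% to 6.68%). It was -4.15 with dsRNA 2 (adjusted p = 1.86e-07) and -4.01 with dsRNA 3 (adjusted p = 1.97e-07), fits that share the control libraries. With library size alone the change with both dsRNAs was -3.50 (edgeR adjusted p = 6.86e-08), so the share that remained depends on the scaling. Among all features tested, 3.59% had a larger absolute change than Hlc with both dsRNAs under TMM.

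With both dsRNAs against control, 8 of the 10 helicases were called at an adjusted p under 0.05 in the edgeR quasi-likelihood test, 3 higher and 5 lower. In that comparison 64.8% of all features tested were called, 32.2% higher and 32.6% lower, so the count is not far from that of features in general. The helicases called higher were CG7878, Dbp73D and bel. Those called lower were Hlc, eIF4A, Rm62, Dbp80 and Dbp45A, the last of which turned to higher when library size alone was used. No call was made for me31B and Hel25E. On library size alone both were called higher and Dbp80 was not called, and upper-quartile factors also called me31B higher. The libraries of the control and Hlc dsRNA groups did not overlap for 9 of the 10, against 71.5% of all features. The median log2 fold change of the 10 was -0.24, and that of all features tested was 0.04, with the quartiles of all features at -0.60 and 0.76. With library size alone the median of all features moved to 0.62 and that of the helicases to 0.35.

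**Figure D1:**
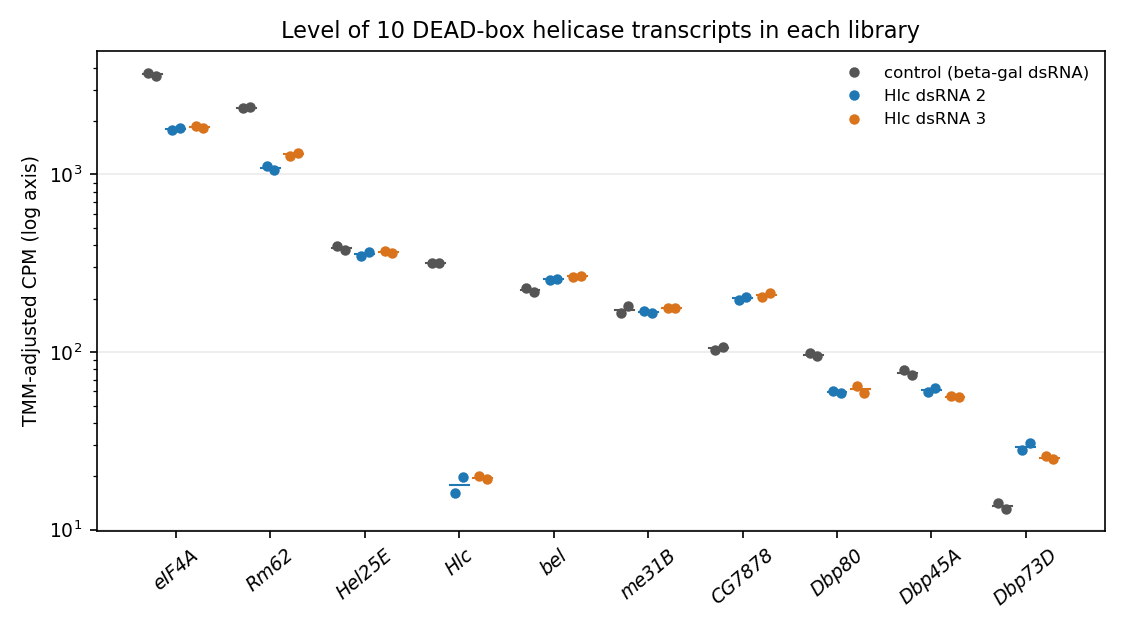
TMM-adjusted CPM (log axis) of the 10 helicases in each of the 6 libraries (points), with a short line at each group's mean. Hlc drops from about 316 CPM in the controls to between 16.1 and 20.02 CPM, CG7878 and Dbp73D lie higher in all 4 Hlc dsRNA libraries than in the controls, and eIF4A, Rm62, Dbp80 and Dbp45A lie lower; on library size alone Dbp45A lies higher.

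The most abundant member was eIF4A, the helicase of the cap-binding complex eIF4F that opens structure near the 5′ end of messenger RNA (chromosome 2L, 5981764 to 5985909, plus strand). Its level was 3748 and 3608 CPM in the controls, 1773 and 1830 CPM with dsRNA 2, and 1872 and 1836 CPM with dsRNA 3. All 4 Hlc dsRNA libraries were below both controls and close to each other. The mean went from 3678 ± 98.9 CPM (SD, n = 2) to 1828 ± 40.8 CPM (SD, n = 4), a log2 fold change of -1.01 (SE 0.05, edgeR adjusted p = 2.37e-06) or 49.7% of control. The change was -1.03 with dsRNA 2 and -0.99 with dsRNA 3. With library size alone it was -0.43 (adjusted p = 0.000104), still a call.

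In CPM under TMM scaling this was the largest shift among the 10, a difference of -1850 CPM against -298 CPM for Hlc. These sizes depend on the scaling. On library size alone, mean CPM went from 2810 to 2090 for eIF4A and from 242 to 21.4 for Hlc. Of all features tested, 34.2% had a larger absolute log2 change than eIF4A. Among 16 listed partners and inhibitors of eIF4A in translation initiation, 12 were tested, of which 2 rose, 7 fell and 3 were not called. Of all features, 32.2% rose and 32.6% fell. The median log2 fold change of the list was -0.25. The split became 8 higher and 2 lower on library size alone, which called 56.1% of all features higher and 16.1% lower. Thor, which binds eIF4E and keeps it from eIF4G, fell from 2371 ± 160 CPM (SD, n = 2) to 196 ± 37.7 CPM (SD, n = 4), a log2 fold change of -3.61 (edgeR adjusted p = 1.47e-07). Paip2, an inhibitor of the poly(A)-binding protein, fell by 2.31 on the log2 scale (edgeR adjusted p = 6.84e-08). The poly(A)-binding protein gene pAbp fell by 0.46, but was at 0.12 with no call on library size alone (adjusted p = 0.0618). The eIF4A cofactor gene eIF4H1 rose by 0.54 (edgeR adjusted p = 4e-05).

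bel, the fly relative of DDX3 with a part in translation initiation (chromosome 3R, 8654975 to 8660761, minus strand), moved little under TMM scaling. It stood at 229 and 217 CPM in the controls, 256 and 259 CPM with dsRNA 2, and 264 and 269 CPM with dsRNA 3. The groups did not overlap, with every Hlc dsRNA library above both controls. The mean rose from 223 ± 8.56 CPM (SD, n = 2) to 262 ± 5.94 CPM (SD, n = 4), a log2 fold change of 0.23 (SE 0.04, edgeR adjusted p = 0.00188). With dsRNA 3 it was 0.26 (edgeR adjusted p = 0.00239). With dsRNA 2 it was 0.21 (edgeR adjusted p = 0.007), and this call was lost without control replicate 2 (0.17, adjusted p = 0.0691), without dsRNA 2 replicate 1 (0.21, adjusted p = 0.0593) and without dsRNA 2 replicate 2 (0.20, adjusted p = 0.0708). Of all features tested, 79.8% had a larger absolute change than bel with both dsRNAs. On library size alone bel was at 0.82 with both dsRNAs (edgeR adjusted p = 2.85e-06).

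me31B is the fly relative of DDX6, a helicase of P bodies that takes part in translational repression and messenger RNA decay (chromosome 2L, 10239341 to 10242172, plus strand). Its level was 165 and 182 CPM in the controls, 169 and 167 CPM with dsRNA 2, and 177 and 176 CPM with dsRNA 3. All 4 Hlc dsRNA libraries lay between the 2 controls. The means were 174 ± 11.7 CPM (SD, n = 2) and 172 ± 5.27 CPM (SD, n = 4), with a log2 fold change of -0.01 (95% interval -0.13 to 0.11, edgeR adjusted p = 0.872). This interval excludes a change of 2-fold under TMM scaling. The value depends on the scaling, at 0.14 with upper-quartile factors (adjusted p = 0.0374) and 0.57 on library size alone (adjusted p = 0.000108). Less the median of all features under the same scaling, these 3 values were -0.05, -0.05 and -0.05. Because the median carries the shift of each scaling, their match cannot test the scaling.

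Of 14 listed decapping, deadenylation and P-body genes, all tested, 6 rose, 4 fell and 4 were not called, where 64.8% of all features were called. Their median log2 fold change was 0.09. Scaled by library size alone, 13 were higher and 1 lower, where 56.1% of all features were higher. Edc3, a decapping factor, fell by 1.04 on the log2 scale (edgeR adjusted p = 1.31e-05) and also fell with library size alone, by 0.46 (adjusted p = 0.00151). The deadenylase gene twin rose by 0.97 (edgeR adjusted p = 7.01e-06), and the decapping cofactor gene DCP1 rose by 0.60 (edgeR adjusted p = 0.000486). tral, whose protein binds me31B, fell by 0.37 (edgeR adjusted p = 0.000596), but was at 0.21 on library size alone (adjusted p = 0.0213).

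Hel25E, the fly UAP56, acts in splicing and in loading export factors onto messenger RNA (chromosome 2L, 5539326 to 5542314, minus strand). It stood at 395 and 377 CPM in the controls, 350 and 368 CPM with dsRNA 2, and 372 and 360 CPM with dsRNA 3. The 4 Hlc dsRNA libraries lay just below both controls without overlap. The means were 386 ± 13.1 CPM (SD, n = 2) and 362 ± 9.73 CPM (SD, n = 4), with a log2 fold change of -0.09 (95% interval -0.20 to 0.02, edgeR adjusted p = 0.126) that was not called. It was 0.05 with upper-quartile factors and 0.49 on library size alone (adjusted p = 4.81e-05).

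Dbp80, the fly relative of DDX19, which remodels messenger RNA-protein complexes at the nuclear pore, has 2367 exonic bases spread over a span of 142844 bases (chromosome 3L, 27279316 to 27422159, plus strand). Its level was 98.2 and 94.8 CPM in the controls, 60.0 and 58.6 CPM with dsRNA 2, and 64.5 and 58.6 CPM with dsRNA 3. All 4 Hlc dsRNA libraries were below both controls. The mean fell from 96.5 ± 2.42 CPM (SD, n = 2) to 60.5 ± 2.80 CPM (SD, n = 4), a log2 fold change of -0.67 (SE 0.05, edgeR adjusted p = 2.77e-05). The change was -0.70 with dsRNA 2 and -0.65 with dsRNA 3. On library size alone it was -0.09 and not called (adjusted p = 0.164). Less the median of all features it was -0.72 under that scaling as under TMM. Subtracting the median removes the shift between scalings, so this match cannot test them.

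Of 14 listed genes of the TREX complex, the export receptor and the nuclear pore, all tested, 7 rose, 2 fell and 5 were not called, where 64.8% of all features were called. Their median was 0.16 on the log2 scale. All 14 were higher on library size alone, as were 56.1% of all features. thoc5, a TREX subunit, rose by 0.74 on the log2 scale (edgeR adjusted p = 5.01e-05), and Gle1, whose yeast and human relatives stimulate the Dbp80 relative at the pore, rose by 0.68 (edgeR adjusted p = 0.000104). PCID2 rose by 1.02 (edgeR adjusted p = 0.000109). The export receptor gene sbr fell by 0.44 (edgeR adjusted p = 8.25e-05), but was at 0.14 on library size alone (adjusted p = 0.0403).

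Rm62 is the fly p68, a relative of mammalian DDX5, and has been linked to transcription, splicing and RNA interference (chromosome 3R, 6000426 to 6008579, minus strand, 12 annotated transcripts). It stood at 2361 and 2384 CPM in the controls, 1119 and 1064 CPM with dsRNA 2, and 1274 and 1321 CPM with dsRNA 3. The Hlc dsRNA libraries were all below the controls, and both dsRNA 3 libraries were above both dsRNA 2 libraries. The mean fell from 2373 ± 16.1 CPM (SD, n = 2) to 1195 ± 122 CPM (SD, n = 4), a log2 fold change of -0.995 (SE 0.05, edgeR adjusted p = 2.64e-06) or 50.2% of control. Scaled by library size alone it was -0.41 (adjusted p = 0.000352). It was -1.12 with dsRNA 2 (edgeR adjusted p = 5.19e-06) and -0.87 with dsRNA 3 (edgeR adjusted p = 1.56e-05). The counts sum all transcripts of the gene, so which of them fell was not analysed here.

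Dbp45A and Dbp73D carry DDX49 and DDX51 as synonyms, after mammalian helicases of the nucleolus, the compartment where ribosomal subunits are assembled. They moved apart. Dbp73D (chromosome 3L, 16728496 to 16730818, minus strand), the scarcest of the 10 in control cells, stood at 14.1 and 13.0 CPM in the controls, 28.0 and 30.7 CPM with dsRNA 2, and 25.9 and 25.05 CPM with dsRNA 3. Every Hlc dsRNA library was above both controls, and both dsRNA 2 libraries were above both dsRNA 3 libraries. The mean rose from 13.6 ± 0.75 CPM (SD, n = 2) to 27.4 ± 2.53 CPM (SD, n = 4), a log2 fold change of 1.01 (SE 0.09, edgeR adjusted p = 3.58e-05). It was 1.12 with dsRNA 2 and 0.91 with dsRNA 3. On library size alone it was 1.60 with both dsRNAs (edgeR adjusted p = 2.58e-06).

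Dbp45A (chromosome 2R, 9087834 to 9089802, plus strand) stood at 78.9 and 73.9 CPM in the controls, 59.8 and 62.7 CPM with dsRNA 2, and 56.4 and 55.9 CPM with dsRNA 3. All 4 Hlc dsRNA libraries were below both controls. The mean fell from 76.4 ± 3.56 CPM (SD, n = 2) to 58.7 ± 3.19 CPM (SD, n = 4), a log2 fold change of -0.38 (SE 0.05, edgeR adjusted p = 0.000445) that turned to 0.20 on library size alone (adjusted p = 0.00888). Less the median of all features, the change was -0.42 under both scalings, a match that cannot test the scaling because subtracting the median removes its shift. Its last 29 exonic bases, 1.74% of its exonic length, lie on top of Nadk2 on the opposite strand. The strand setting of the count is not given in the sources used here, so reads from that stretch cannot be told apart.

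No role is given here for CG7878 (chromosome 3R, 8122725 to 8125273, plus strand). It stood at 103 and 107 CPM in the controls, 197 and 203 CPM with dsRNA 2, and 205 and 214 CPM with dsRNA 3. Every Hlc dsRNA library was well above both controls, with little spread inside each group. The mean rose from 105 ± 2.87 CPM (SD, n = 2) to 205 ± 6.86 CPM (SD, n = 4), a log2 fold change of 0.96 (SE 0.05, edgeR adjusted p = 2.03e-06). The change was 0.93 with dsRNA 2 and 0.99 with dsRNA 3, and 1.54 on library size alone. Of all features tested, 20.2% rose more steeply in log2 fold change than CG7878 and 18.99% more steeply than Dbp73D.

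**Figure D2:**
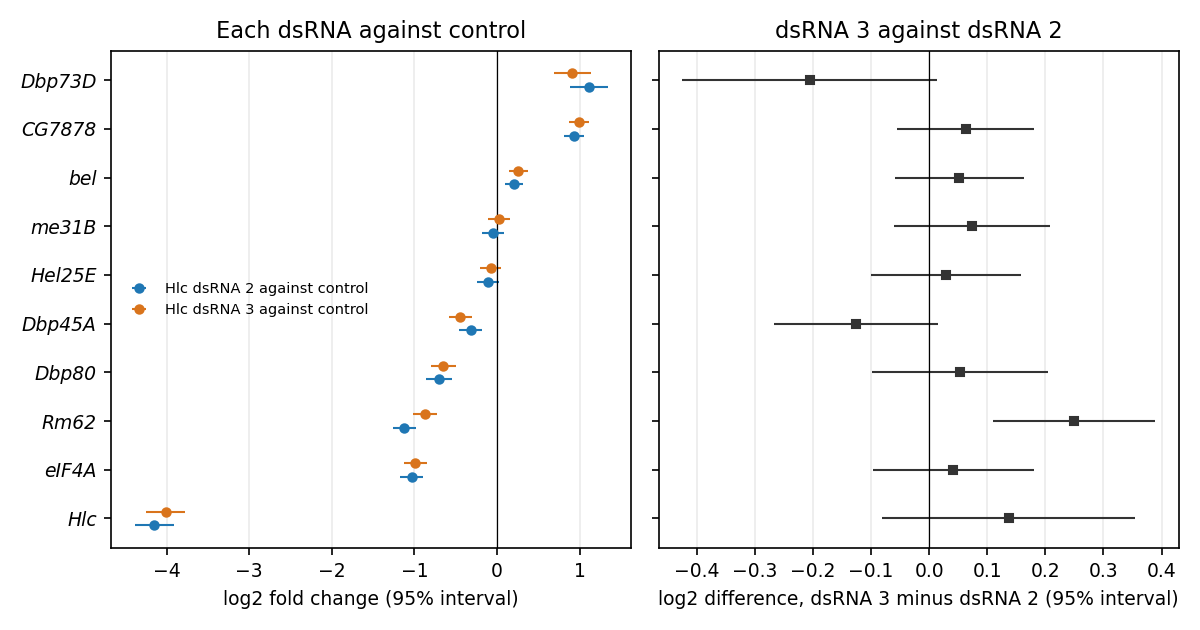
Log2 fold changes of the 10 helicases with 95% intervals (bars) from the edgeR fit. On the left are dsRNA 2 and dsRNA 3 against the shared controls, with Hlc near -4 and CG7878 and Dbp73D near 1; on the right is dsRNA 3 minus dsRNA 2 on a narrower axis, where the interval of Rm62 (0.11 to 0.39) lies above 0 and the other 9 intervals include 0.

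Values with the 2 dsRNAs differed by at most 0.25 on the log2 scale among the 10 helicases. Against the shared controls, 8 of 10 were called with dsRNA 2 and 8 of 10 with dsRNA 3, in each case 3 higher and 5 lower. Of all features, 60.7% were called with dsRNA 2 (30.4% higher, 30.3% lower) and 61.6% with dsRNA 3 (29.9% higher, 31.6% lower). In the direct comparison of dsRNA 3 with dsRNA 2, edgeR called 0 of 10 at an adjusted p under 0.05, against 0.0797% of all features, which is 9 features. At an unadjusted p under 0.05, 1 of the 10 passed, against 20.3% of all features. The DESeq2 and limma-voom tests each called 1 of the 10, where DESeq2 called 15.7% of the 7790 features it gave an adjusted p (1221 features) and limma-voom 2.9% of all features (327 features). In each case this was Rm62, higher with dsRNA 3 by 0.25 on the log2 scale (95% interval 0.11 to 0.39, adjusted p = 0.101 in the edgeR quasi-likelihood test). The DESeq2 test gave 0.26 (adjusted p = 5.07e-05) and limma-voom 0.25 (adjusted p = 0.049). Libraries of the 2 dsRNA groups did not overlap for 7 of the 10, against 54.7% of all features.

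For Hlc itself the difference of dsRNA 3 minus dsRNA 2 was 0.14 (95% interval -0.08 to 0.35, edgeR adjusted p = 0.456). It was -0.21 for Dbp73D (95% interval -0.42 to 0.01, edgeR adjusted p = 0.272) and -0.13 for Dbp45A (95% interval -0.27 to 0.02, edgeR adjusted p = 0.294). For CG7878 it was 0.06 (95% interval -0.05 to 0.18) and for eIF4A 0.04 (95% interval -0.10 to 0.18). The intervals of me31B, bel, Dbp80 and Hel25E also included 0, with differences of 0.07, 0.05, 0.05 and 0.03.

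**Figure D3:**
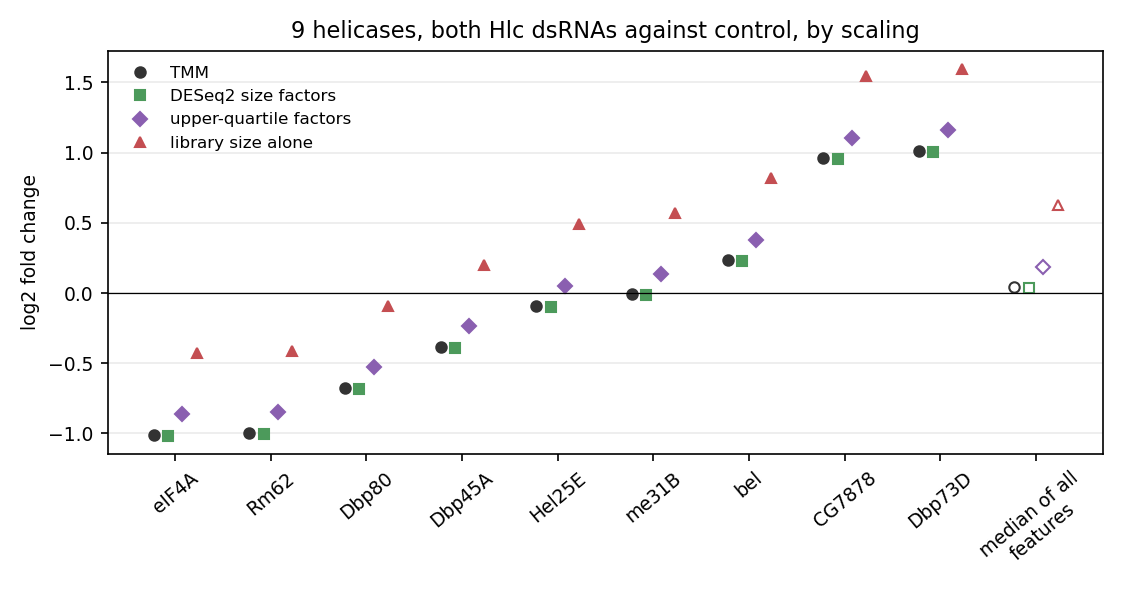
Log2 fold change of both Hlc dsRNAs against control for the 9 helicases other than Hlc and for the median of all features tested (open symbols), with symbols for 4 scalings (TMM, DESeq2 size factors, upper quartile, library size alone). The symbols of library size alone lie about 0.6 above those of TMM for every gene and for the median, which takes Dbp45A, Hel25E and me31B above 0.

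The scaling moved all 10 values together. Upper-quartile factors gave 4 helicases called higher, 5 lower and 1 not called, where 37.6% of all features were called higher and 27.9% lower. Library size alone gave 6 higher, 3 lower (Hlc, eIF4A and Rm62) and 1 not called (Dbp80), where 56.1% of all features were called higher and 16.1% lower. Less the median of all features, eIF4A stood at -1.05 under TMM and under library size alone, Rm62 at -1.04 under both, CG7878 at 0.92 under both and bel at 0.19 under both. A change of scaling shifts all genes by nearly the same amount, and subtracting the median removes that shift. The match of these values, and the order from eIF4A and Rm62 to CG7878 and Dbp73D, therefore cannot test the scaling. The sign of the helicases near 0 did depend on it.

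Per kilobase of exonic length, the levels in control cells ran from eIF4A at 1483 CPM per kb through Rm62 at 441, Hel25E at 157, Hlc at 150, me31B at 94.1, bel at 56.1, Dbp45A at 45.7, CG7878 at 44.3 and Dbp80 at 40.8 to Dbp73D at 6.14 CPM per kb. Neighbours in this order did not overlap between the 2 control libraries, except Dbp45A and CG7878. Exonic length joins the exons of all annotated transcripts (5386 bases for Rm62), and the order was not tested with other lengths. In the Hlc dsRNA libraries Hlc took the last place of the 10, at 8.86 CPM per kb, below Dbp73D at 12.4 CPM per kb. CG7878 moved ahead of bel, at 86.3 against 66.0 CPM per kb. eIF4A at 737, Rm62 at 222 and Hel25E at 147 CPM per kb kept the first 3 places.

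**Figure D4:**
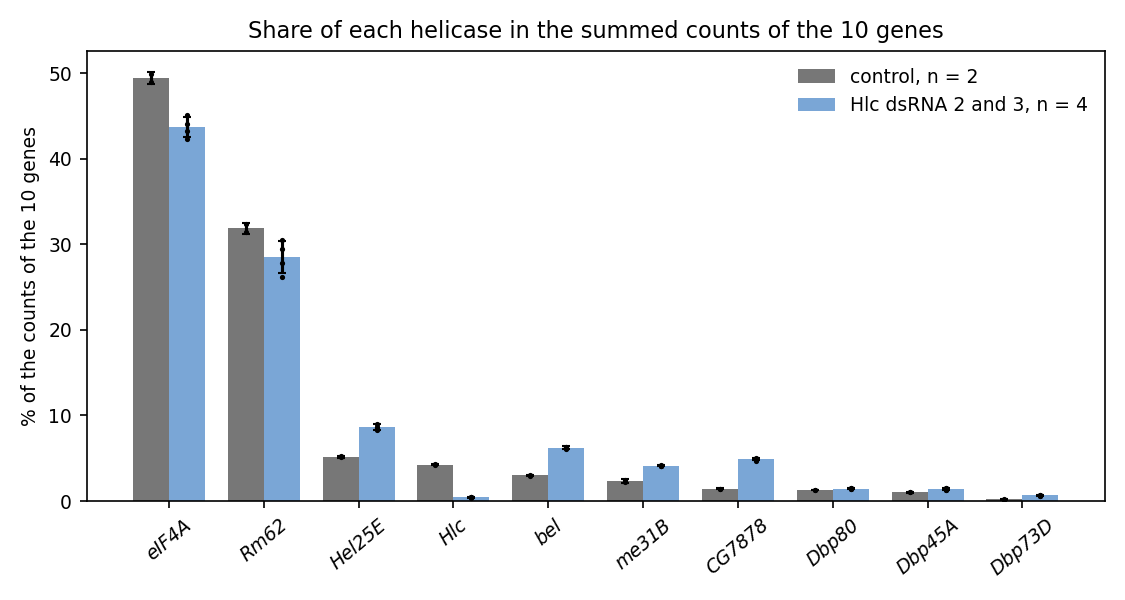
Share of each helicase in the summed counts of the 10 genes, as the mean of 2 control and of 4 Hlc dsRNA libraries (bars from 0, error bars SD, points single libraries). Hlc goes from 4.25% to 0.447%, eIF4A and Rm62 also lose share, and the other 7 gain, with Hel25E at 8.65% and CG7878 at 4.89% in the Hlc dsRNA libraries.

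Shares within the 10 genes do not depend on the scaling of whole libraries. eIF4A and Rm62 together made up most of the counts, with eIF4A at 49.4% ± 0.68 of the sum in the controls (SD, n = 2) and 43.7% ± 1.15 in the Hlc dsRNA libraries (SD, n = 4). Rm62 went from 31.9% ± 0.64 to 28.5% ± 1.87. CG7878 went from 1.41% ± 0.06 to 4.89% ± 0.12 and bel from 2.99% ± 0.08 to 6.26% ± 0.13. A share shows unequal change among the 10 and not a change of level. The summed level of the 10 was 7511 and 7372 CPM in the controls and 4029 to 4336 CPM in the Hlc dsRNA libraries. As a share of all counts it was 0.564% and 0.573% in the controls and 0.458% to 0.503% in the others. Under TMM, CG7878, bel and Dbp73D together gained 153 CPM, while Hlc lost 298 CPM. The 9 helicases other than Hlc summed to a change of -2954 CPM. These sums depend on the scaling. On library size alone, mean CPM of Hlc went from 242 to 21.4. CG7878 went from 80.4 to 234, bel from 170 to 300 and Dbp73D from 10.4 to 31.3, together more than Hlc lost. On that scale eIF4A went from 2810 to 2090 CPM and Rm62 from 1813 to 1367 CPM.

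**Figure D5:**
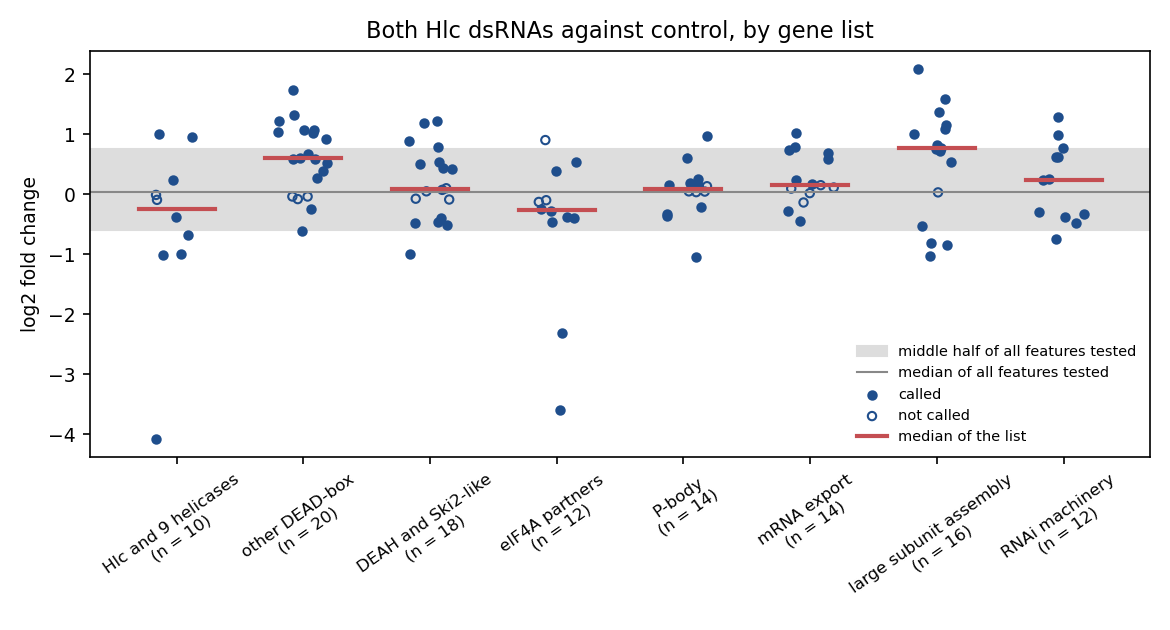
Log2 fold change of both Hlc dsRNAs against control for each tested gene of 8 lists (filled points called, open points not called), with the median of each list in red, the median of all features tested as a grey line and their middle 50% as a grey band. The median of other DEAD-box helicases (0.60) lies in the upper part of the band, that of large-subunit assembly genes (0.77) at its upper edge (0.76), and that of Hlc and the 9 helicases at -0.24.

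A further 21 fly DEAD-box helicases were listed, of which 20 were tested. The germline helicase vas, with 20 counts in all, did not pass the filter. The list was written with earlier results of these data known, so its counts are not independent of them. With both dsRNAs 15 of the 20 rose, 2 fell and 3 were not called, where 32.2% of all features rose and 32.6% fell. The median log2 fold change was 0.60 against 0.04 for all features. On library size alone 19 were higher and 0 lower (56.1% and 16.1% of all features), and with upper-quartile factors 15 were higher and 1 lower (37.6% and 27.9% of all features). In the comparison of dsRNA 3 with dsRNA 2, edgeR called 0 of the 20 (0.0797% of all features), while 3 passed an unadjusted p under 0.05 (20.3% of all features). DESeq2 called 2 (15.7% of the 7790 features it gave an adjusted p) and limma-voom 0 (2.9% of all features).

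The steepest rise among the 20 was that of CG5589, named ais in the annotation, from 4.28 ± 0.30 CPM (SD, n = 2) to 14.4 ± 1.92 CPM (SD, n = 4), a log2 fold change of 1.74 (edgeR adjusted p = 1.41e-05). CG32344 followed at 1.32 (edgeR adjusted p = 1.8e-06), from 21.8 ± 0.51 CPM to 54.7 ± 2.33 CPM. pit, a nucleolar helicase needed for growth, stood at 48.6 and 42.5 CPM in the controls, 101 and 98.7 CPM with dsRNA 2, and 89.2 and 94.1 CPM with dsRNA 3. All 4 Hlc dsRNA libraries were above both controls for pit, with a log2 fold change of 1.07 (edgeR adjusted p = 7.83e-06). CG9630 rose by 1.08 (edgeR adjusted p = 0.0002).

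CG14443, near the detection floor at 0.66 ± 0.40 CPM in the controls (SD, n = 2), had a log2 fold change of 1.22 (edgeR adjusted p = 0.0385). Its call was lost without control replicate 2 (0.69, adjusted p = 0.181), without dsRNA 2 replicate 1 (adjusted p = 0.0615) or replicate 2 (adjusted p = 0.065), and without dsRNA 3 replicate 1 (adjusted p = 0.0949). Its position lies inside pigs, on the same strand. The 2 that fell were CG10333, at -0.60 (edgeR adjusted p = 4.6e-05), and Dbp21E2, at -0.25 (edgeR adjusted p = 0.0203). On library size alone CG10333 was at -0.02 with no call (adjusted p = 0.762) and Dbp21E2 at 0.33 (adjusted p = 0.00968). The call of Dbp21E2 was also lost with upper-quartile factors (-0.11, adjusted p = 0.238), without either control (adjusted p = 0.0547 without replicate 1 and 0.102 without replicate 2) and without dsRNA 2 replicate 2 (adjusted p = 0.0644).

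The smallest rises called were CG6227 at 0.27 (edgeR adjusted p = 0.00147), named Prp5 in the annotation, CG5800 at 0.40 (edgeR adjusted p = 0.00089) and CG9253 at 0.51 (edgeR adjusted p = 0.000102), named pths in the annotation. Of 18 listed DEAH-box and Ski2-like helicases, all tested, 8 rose, 5 fell and 5 were not called, where 64.8% of all features were called. Their median log2 fold change was 0.09, and on library size alone 13 were higher and 1 lower, against 56.1% and 16.1% of all features. mle, the helicase of the dosage compensation complex, rose by 0.90 on the log2 scale (edgeR adjusted p = 8.68e-06) and kz by 1.20 (edgeR adjusted p = 3.14e-05). l(3)72Ab, the fly Brr2 of the spliceosome, rose by 0.54 (edgeR adjusted p = 3.95e-05), and CG1582 fell by 0.9997 (edgeR adjusted p = 2.77e-06).

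Human DDX56 takes part in large ribosomal subunit assembly, and 16 genes of that process were listed, also with earlier results of these data known. All 16 were tested, of which 11 rose, 4 fell and 1 was not called, where 32.2% of all features rose and 32.6% fell. The median log2 fold change was 0.77 against 0.04 for all features. Scaled by library size alone, 12 were higher and 3 lower, against 56.1% and 16.1% of all features. RpLP0-like rose from 35.1 ± 0.11 CPM (SD, n = 2) to 91.9 ± 15.7 CPM (SD, n = 4), a log2 fold change of 1.37 (edgeR adjusted p = 1.41e-06). Surf6 rose by 1.10 (edgeR adjusted p = 2.38e-06) and CG5033, the fly Bop1, by 1.01 (edgeR adjusted p = 2.13e-06). The most abundant gene of the list, Non1, went the other way, from 2765 ± 11.6 CPM (SD, n = 2) to 1365 ± 158 CPM (SD, n = 4), a log2 fold change of -1.02 (edgeR adjusted p = 3.72e-06).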

How the data were processed

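Poly(A) RNA of 6 S2 libraries was sequenced after TruSeq library preparation, per the labels' protocols. The authors deposited whole-number counts per gene, with no normalization. Per the submitters' processing notes, which state no roles, the tools were Trimmomatic 0.36, TopHat2 2.1.0 and StringTie 2.1.7 and the build BDGP6. The counting step, its strand setting and its handling of reads shared by similar genes were not given in the sources used here, so counts of closely related helicases are uncertain in how shared reads were divided. 0 columns of per-sample values were left unused.

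Counts were analysed in R 4.3.3 with edgeR 4.0.16 (filterByExpr, TMM, quasi-likelihood F test, 1 term per group over all 6 libraries, 3 residual degrees of freedom). Calls used a Benjamini-Hochberg adjusted p under 0.05 over the 11293 features tested. CPM use TMM-adjusted library sizes, and standard errors are those implied by the F test. Sampling noise alone would give a chi-square per degree of freedom near 1 between replicates; it was 27.4 for the controls, 31.6 for dsRNA 2 and 37.9 for dsRNA 3. Positions and exonic lengths come from the Ensembl annotation of BDGP6.54, release 115, where 99.7% of identifiers were found, and are 1-based; CG9143 has none there.

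Alternatives replaced TMM (by DESeq2 size factors, by the upper quartile, by library size alone), the filter (by none, by 1 CPM in 2 libraries) or the test (by DESeq2 1.42.0, by limma-voom of limma 3.58.1), added a block on replicate number, left out each library in turn, or fitted only the groups compared. On simulated data with 10945 features tested, the comparison of both dsRNAs with control found 87.7% of the 106 genes given a 2-fold change, 100% of the 90 given a 4-fold change and 6 genes given none. The simulation changed few genes, whereas 64.8% of features were called in the real comparison. It gave all genes the same spread and built in no difference of scaling factors between groups. Its rates therefore cannot be taken as those of the real comparison.

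The helicases and the lists were chosen with earlier results of these data known, and spellings in the lists were corrected against the annotation, which also led to 2 entries being removed, 1 a repeat and 1 not a DEAD-box gene. The rule for named genes took the 10 helicases, the 5 highest and 5 lowest called log2 fold changes among the other DEAD-box genes, up to 4 genes per further list by adjusted p, the 5 genes most like Hlc over the libraries, and features that overlap Hlc. Genes named outside this rule include AGO2, the Hlc neighbours slgA and mst, and the cell type markers. The search for runs of bases shared with Hlc was not run.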

Additional observations from a re-analysis of the deposited data

How the results depend on the processing

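With 2 libraries a group, the fit had 3 residual degrees of freedom. The choice of scaling set the sign of the helicases near 0. The number of helicases called against control, 8 with both dsRNAs and with each, was 8 or 9 over the alternatives that kept 2 libraries a group. The 17 other DEAD-box helicases called with both dsRNAs ran from 16 to 19 there. Of all features, 7321 (64.8%) were called with both dsRNAs, and 6765 to 8146 over those alternatives. With dsRNA 2 the number was 6852 (60.7%), and 6473 to 7657 over them. With dsRNA 3 it was 6954 (61.6%), and 6518 to 7790. Hlc, eIF4A, Rm62, CG7878 and Dbp73D kept their direction and call against control under every alternative run. Hlc ran from -4.15 to -4.01 with both dsRNAs when 1 library was left out.

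With both dsRNAs, me31B turned positive with upper-quartile factors (0.14) and library size alone (0.57) and ran from -0.080 to 0.060 with 1 library left out. Hel25E turned positive under the same scalings (0.053 and 0.49), and Dbp45A with library size alone (0.20). With dsRNA 2, me31B was at 0.10 and 0.53 under these scalings and ran from -0.12 to 0.022 with 1 library left out, Hel25E was at 0.034 and 0.47, and Dbp45A at 0.26 on library size alone. With dsRNA 3, Hel25E was at 0.071 and 0.51 and Dbp45A at 0.15 on library size alone, and me31B ran from -0.041 to 0.098 with 1 library left out. Dbp80 lost its call on library size alone in all 3 comparisons (-0.09, -0.13 and -0.06). In dsRNA 3 minus dsRNA 2, leaving out 1 library gave -0.0015 to 0.29 for Hlc, -0.013 to 0.12 for Dbp80 and -0.0048 to 0.072 for Hel25E.

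Between the dsRNAs, the 9 features called of all tested became 1 with library size alone or only the groups compared, 34 with no filter, 107 with 1 CPM in 2 libraries, 1221 with the DESeq2 test and 327 with limma-voom. Leaving out 1 library gave 1 to 148, with 148 without dsRNA 3 replicate 1 and 1 without dsRNA 3 replicate 2 or either control. The DESeq2 test and limma-voom each called 1 of the 10 helicases there, in place of 0. The cause was not tested.

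Libraries with the same replicate number did not deviate together across genes (correlations of -0.04, 0.00 and -0.03). A correlation over all genes cannot detect a shift of few genes, so whether they shared a culture or a day was not tested. With the replicate number as a block, 8 helicases were called in each comparison with control and 0 between the dsRNAs. Of all features, those called against control went from 7321 to 7099 with both dsRNAs. They went from 6852 to 6634 with dsRNA 2 and from 6954 to 6683 with dsRNA 3. Features called between the dsRNAs went from 9 to 1.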

Other observations

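The core genes of dsRNA silencing were detected in every library. Of 12 listed Argonaute, Dicer and cofactor genes, all tested, 7 rose and 5 fell with both dsRNAs against control, where 32.2% of all features rose and 32.6% fell. The median log2 fold change was 0.25, and on library size alone 10 were higher and 1 lower, against 56.1% and 16.1% of all features. AGO2, the Argonaute loaded with small interfering RNA, stood at 957 and 1048 CPM in the controls, 732 and 699 CPM with dsRNA 2, and 787 and 865 CPM with dsRNA 3. All 4 Hlc dsRNA libraries were below both controls for AGO2, with a log2 fold change of -0.38 (edgeR adjusted p = 0.00142) that turned to 0.20 on library size alone (adjusted p = 0.0489). AGO1, the Argonaute of microRNAs, rose by 0.99 on the log2 scale (edgeR adjusted p = 5.98e-06), Hen1, which methylates small RNA ends, by 1.29 (edgeR adjusted p = 5.45e-05) and Tudor-SN by 0.62 (edgeR adjusted p = 3.18e-05). vig fell by 0.74 (edgeR adjusted p = 1.11e-05) and by 0.16 on library size alone (adjusted p = 0.0427).

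Around Hlc on chromosome X, the 2 neighbouring protein-coding genes moved in opposite directions. slgA, which starts at 21374002 and ends 358 bases from the 3′ end of Hlc, stood at 50.6 and 53.7 CPM in the controls, 82.4 and 86.7 CPM with dsRNA 2, and 100.1 and 99.0 CPM with dsRNA 3, a log2 fold change of 0.82 (edgeR adjusted p = 8.01e-06). mst, which begins 1030 bases upstream of Hlc on the other strand, stood at 139 and 133 CPM in the controls and 62.2 to 64.9 CPM in the other 4, a log2 fold change of -1.10 (edgeR adjusted p = 8.95e-07). The groups did not overlap for either, as for 71.5% of all features tested. Of all features, 64.8% were called with both dsRNAs against control. snoRNA:MeU6-A47, inside intron 2 of Hlc, had 10, 6, 8, 5, 0 and 12 counts in the order control, dsRNA 2 and dsRNA 3 and was not tested.

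The genes with a symbol whose profile over the 6 libraries was most like that of Hlc, by root mean square difference of centred log2 CPM among 6289 features compared, were rpr (0.12), Hsp68 (0.14), RabX1 (0.15), pirk (0.16) and GstE9 (0.16). The Hlc profile is mainly its fall with its own dsRNA, so this ranking returns genes with falls of similar size. The log2 fold changes of those listed ran from -4.36 to -4.16, and shared regulation with Hlc was not tested. rpr, a cell death gene, went from 89.1 to 4.98 CPM between the control and Hlc dsRNA means, and Hsp68, a heat shock protein gene, from 372 to 18.8 CPM.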
